A study of Vitis vinifera with 74 samples.

Results

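A group of 24 grapevine genes, out of 42413 gene identifiers in the count tables, had higher transcript levels in control leaves 2 and 4 h after a midday spray and returned to near their earlier levels at 24 and 48 h. The members were chosen by these measured values themselves. Levels were counts scaled to a common library total (CPM, a gene's share of all counts in its column, scaled up), and each criterion was a log2 ratio of group mean CPM + 1. Control leaves at 4 h had to reach at least 1 over pre-treatment leaves and control leaves at 2 h more than 0.3, while control leaves at 24 and 48 h had to lie within 0.5 of pre-treatment. Leaves given abscisic acid (ABA) had to lie within 0.5 of their controls at 24 and 48 h. Buds had to lie within 1 of their controls at 12 and 48 h, and control buds of 72 h within 1 of pre-treatment buds. The first criterion was met by 538 genes, the rise at 2 h left 493, the return at 24 and 48 h left 134, the leaf ABA limits left 70, the bud ABA limits left 35, and the last bud criterion left 24. At the threshold of the 4 h criterion, the members just inside had log2 ratios of 1.00, 1.01 and 1.02, and the nearest genes just outside, which met the other criteria, had 0.97, 0.97 and 0.96.

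Many leaf transcripts cycle over the day, driven by light, temperature and the plant's circadian clock, so that a level can be high in the afternoon and return to its earlier value at the same hour on the next day. ABA is a plant hormone that closes stomata and takes part in responses to drought and cold, and several of the genes it acts on in Arabidopsis also cycle over the day. A gene that changes with the hour can look like a treatment response when treated leaves are set against leaves of an earlier hour, which is why time-matched controls are used.

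The study applied ABA to the cultivar Cabernet Franc in an acclimation experiment on leaves and a deacclimation experiment on buds. Vines in pots in a greenhouse had their leaves sprayed at midday with S-ABA at 500 mg per litre (1.9 mM) in water with the surfactant Tween-20, or with water and surfactant alone as the control. There were 4 ABA and 4 control libraries at each of 2, 4, 24 and 48 h, and 8 pre-treatment libraries, 40 in all. In single-node cuttings from field-grown vines, woolly buds received S-ABA at 1322 mg per litre (5 mM), or water alone as the control, and were sampled at 6, 12, 24, 48 and 72 h and before treatment.

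The word afternoon rests on the noon spray that the labels give, since no clock time of sampling is given there. Time of day and time since wetting of the leaf cannot be told apart, because every leaf library after 0 h came from a sprayed vine. None of the 42413 identifiers matched the gene table at hand, so the members have no name or known function here, and the leaf origin could not be checked with marker genes. Members are therefore called by number, in order of their mean CPM over the 40 leaf libraries, and the identifiers of only 2 are printed. A 3′ tag level is not a level per length, and the number only names a member. Apart from those 2, the members described by number were picked after their values had been seen.

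The members spanned a wide range of levels. Mean CPM over the leaf libraries ran from 0.314 to 3083, with a median of 3.94. The sums of counts over the 40 libraries ran from 24 to 246580, with a median of 310. Member 1, Vitvi18g01124, held 91.2% of the members' summed CPM, and 9 members had a mean of at least 5 CPM. At the low end, 5 members had a mean under 1 CPM, where 1 count in a leaf library is worth 0.414 to 0.757 CPM. A count filter used for testing (at least 10 counts in enough libraries) kept members 1 to 16, down to a mean of 2.52 CPM, and left out members 17 to 24, from 2.48 CPM downwards. A member could pass that filter through the 4 h control libraries in which it was chosen to be high, so no count over the 16 is support for their rise.

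In control leaves the 24 members differed in size and in time course. At 2 h the log2 ratio over pre-treatment lay between 0.43 and 1.51, with a median of 0.77, and at 4 h between 1.00 and 1.96, with a median of 1.15. The 4 h mean was above the 2 h mean in 23 members, and member 8 was the exception. At 24 h the ratios lay between -0.06 and 0.46 with a median of 0.22, and the mean was above pre-treatment in 21 members. At 48 h they lay between -0.48 and 0.49 with a median of 0.00, and 11 members were above pre-treatment. All of these ratios were limited by the criteria and describe the choice. In edgeR's quasi-likelihood test over all leaf libraries (Benjamini-Hochberg adjusted p under 0.05), 16 of the 16 members tested were called higher in control leaves at 4 h than before treatment, where 7.27% of 13378 genes were, and nothing is read from that count. At 2 h, 7 of 16 were called higher than before treatment, where 5.61% of genes were, and nothing is read from that count either. It was 2, 3 or 4 without control 2 h replicate 1, 2 or 3, in fits where the filter kept 17 members. Without a single pre-treatment column it was as low as 5.

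**Figure D1:**
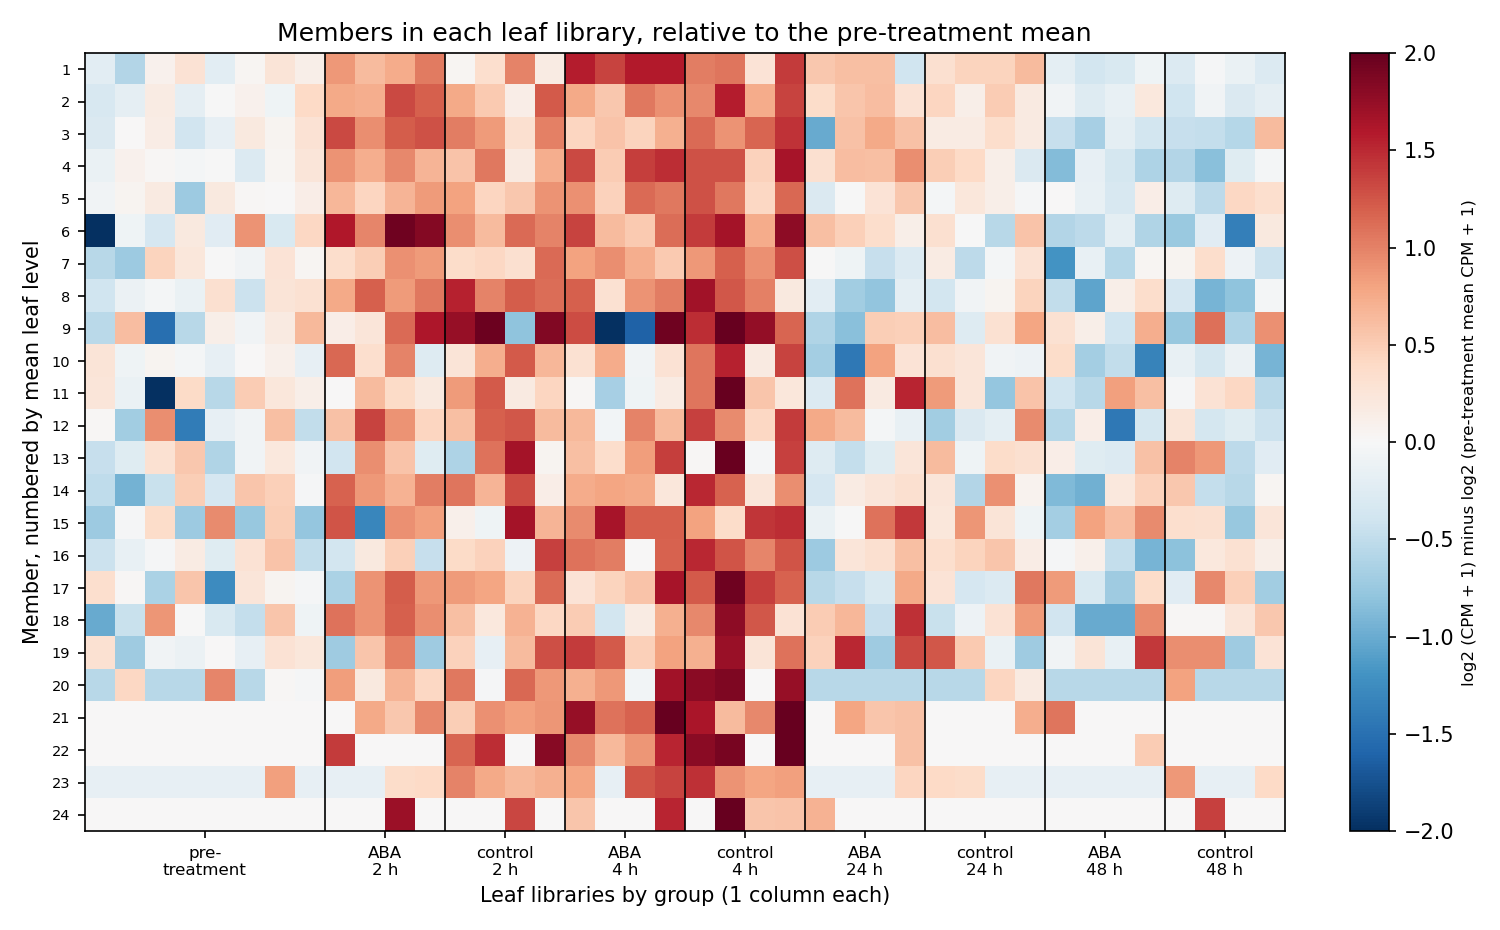
Level of each of the 24 members (rows, numbered from the highest to the lowest mean CPM) in each of the 40 leaf libraries (columns, grouped by treatment and time), as log2 (CPM + 1) minus log2 of the pre-treatment mean CPM + 1; red is higher and blue lower, and colours end at 2 and -2. The columns of 2 and 4 h are mostly red in ABA and in control leaves, and those of 24 and 48 h are mostly pale. The choice of members used all groups except ABA leaves of 2 and 4 h. Rows 20 to 24 rest on few counts.

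A median over the 24 members in each library shows how the libraries were spread. The log2 ratios over the pre-treatment mean had medians of 0.64 to 0.91 in the 4 ABA libraries of 2 h and of 0.67 to 0.88 in the 4 control libraries of 2 h. At 4 h they were 0.79, 0.56, 0.75 and 1.15 in ABA libraries and 1.25, 1.41, 0.65 and 1.32 in control libraries. The ABA and control ranges overlapped at both times, and at 4 h control replicate 3 lay below 3 of the 4 ABA libraries. In that library 14 of the 24 members had their lowest value among the 4 h controls and none had its highest. Without it, the criteria gave 43 genes, 23 of them among the 24. ABA replicate 2 of 4 h held the lowest value of 13 members in its group, and ABA replicate 4 the highest of 14. The medians were -0.15 to 0.45 in ABA and 0.00 to 0.26 in control libraries at 24 h, and -0.23 to 0.08 in ABA and -0.20 to 0.00 in control libraries at 48 h, against -0.25 to 0.20 in the 8 pre-treatment libraries. No library of 24 or 48 h reached the lowest median of 2 or 4 h. The criteria held the group means of 24 and 48 h near pre-treatment and the controls of 2 and 4 h above it. This separation therefore describes the choice, which left only the ABA libraries of 2 and 4 h unused.

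**Figure D2:**
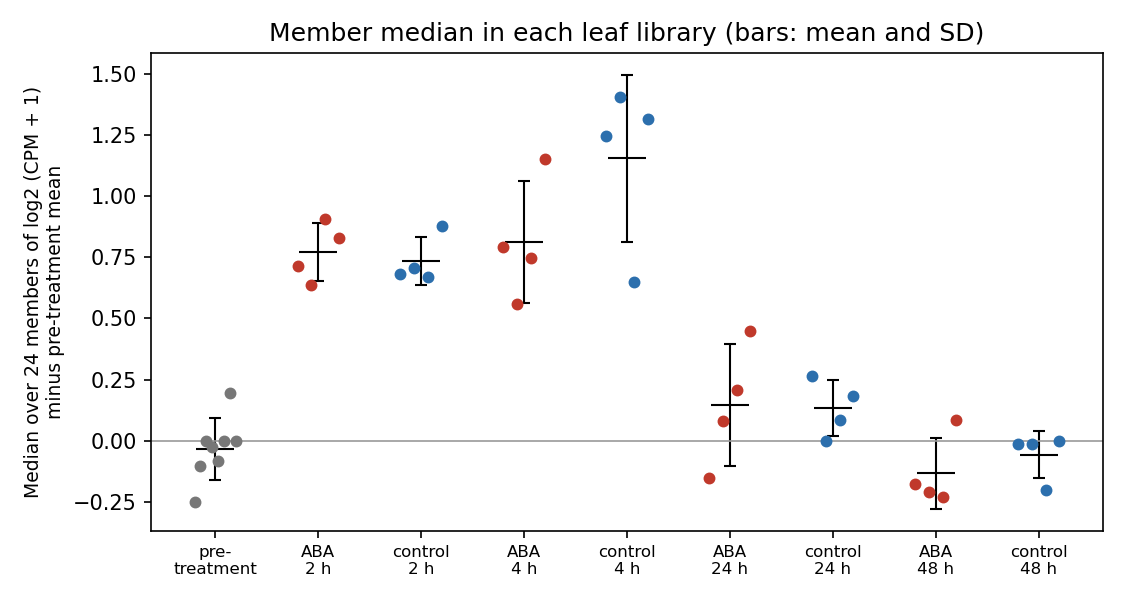
Median over the 24 members of the log2 ratio to the pre-treatment mean (vertical axis) in each leaf library (points), by group, with the mean and SD over libraries as bars. Libraries of 2 and 4 h lie between 0.56 and 1.41, and those of 24 and 48 h and of pre-treatment lie below 0.5. The choice of members used all groups except ABA leaves of 2 and 4 h, so the separation describes the choice. Control replicate 3 of 4 h, at 0.65, stands below the other 3 controls of its time.

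The leaves given ABA and sampled at 2 and 4 h are the only leaf libraries that the choice of members did not use. Their levels were also above pre-treatment in most members. The mean was above the pre-treatment mean in 24 of 24 members at 2 h after ABA, with log2 ratios of 0.02 to 1.63 and a median of 0.68. At 4 h after ABA it was above in 23 of 24, with ratios of -0.11 to 1.64 and a median of 0.87. Member 11 was the one below. The pre-treatment libraries in these ratios helped to choose the members, so the ratios are a description. A log2 ratio of at least 1, which the choice required of control leaves at 4 h, was reached by 6 members in ABA leaves at 4 h and by 4 at 2 h. Every ABA library lay above every pre-treatment library in 9 of the 24 members at 2 h and in 9 at 4 h, as did every control library in 5 at 2 h and 9 at 4 h. Among the 16 tested this was so in 8 members for ABA at 2 h (4.11% of all genes) and in 6 for ABA at 4 h (7.14%), and in 4 for control at 2 h (3.69%) and 7 for control at 4 h (4.96%). Of the 16 tested, 8 were called higher than pre-treatment in ABA leaves at 2 h, where 4.65% of all genes were. At 4 h 9 were, where 12.4% of all genes were. The pre-treatment libraries helped to choose the members, and members could pass the count filter through the 4 h controls. Nothing is therefore read from these calls or from the counts of libraries above pre-treatment.

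The comparison that does not rest on the choosing libraries is ABA leaves at 4 h against ABA leaves at 2 h. Here the members did not share a direction. The mean was higher at 4 h in 14 of the 24 members and lower in 10 (7 of the 16 tested were higher, as were 49.6% of all genes), with log2 differences of -0.72 to 1.03 and a median of 0.09. Among the 16 tested, the fitted differences ran from -0.71 to 1.19 and had a median of -0.12, beside 0.01 over all 13378 genes. That median turned positive without ABA 2 h replicate 4 (0.15) and without ABA 4 h replicate 2 (0.061) or 3 (0.091). The count filter kept 17 members in each of those fits, so the set of members changed as well. The median was also positive with all 24 members in a fit without the count filter (0.13). edgeR called 0 of the 16, against 0.493% of all genes called higher and 1.05% called lower, and 4 members, 2 higher and 2 lower, had an unadjusted p under 0.05. DESeq2 called 1 of the 16.

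Over the same interval the control leaves were chosen to be high at 4 h, and their log2 differences of 4 h minus 2 h lay between -0.10 and 0.74 with a median of 0.48. Across the 24 members the change in ABA leaves and the change in control leaves, which share no library, had a Pearson correlation of 0.23 and a Spearman correlation of 0.22. These are correlations across genes of the same libraries, given as a description. In edgeR no member was called between control leaves of 4 and 2 h, where 0% of all genes were higher and 0.00747% lower, and 4 members had an unadjusted p under 0.05. Whether the change from 2 to 4 h differed between ABA and control was not tested, because the control libraries chose the members.

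**Figure D3:**
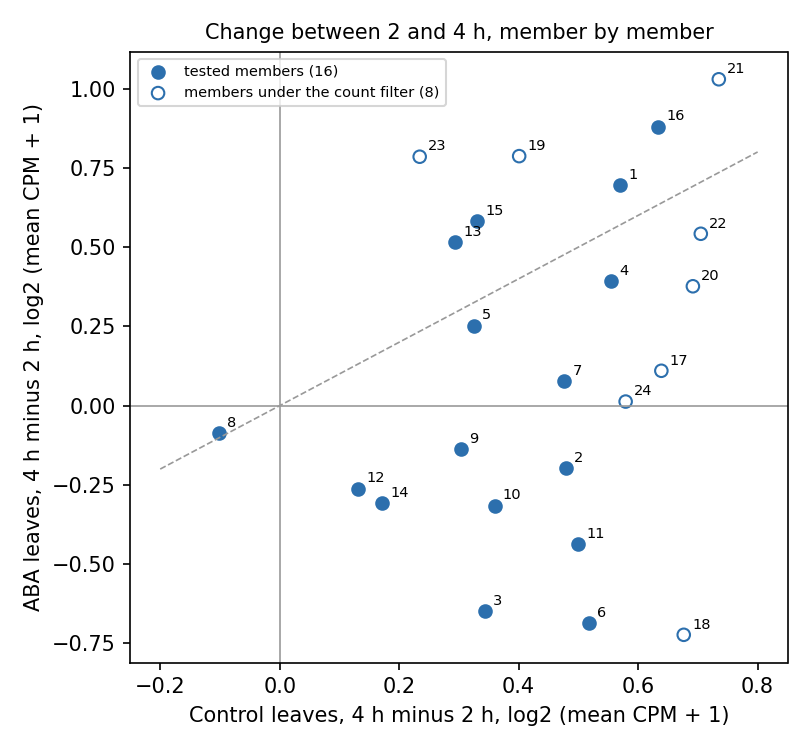
Change between 2 and 4 h in ABA leaves (vertical axis) against the same change in control leaves (horizontal axis), both as log2 (mean CPM + 1) at 4 h minus 2 h, for 24 members (points with their numbers); filled points are the 16 tested and open points the 8 under the count filter, and the dashed line marks equal changes. ABA changes are positive in 14 members and negative in 10, and control changes are positive in 23 members, which were chosen to be high in control leaves at 4 h.

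Member 1, Vitvi18g01124, was the most abundant member. It lay at the edge of the choice, with a 4 h control log2 ratio of 1.00. It was kept in 22 of 32 choices with 1 leaf library left out and not with TMM-scaled totals. Its pre-treatment level had a lowest value of 1420, a median of 2240 and a highest of 2613 CPM. At 2 h it had 3901, 3322, 3578 and 4395 CPM in ABA leaves, and 2384, 2196, 2700 and 4251 CPM in control leaves. At 4 h it had 6319, 5456, 6392 and 6426 CPM in ABA leaves, and 4361, 4503, 2590 and 5657 CPM in control leaves. All 4 ABA libraries of 4 h lay above all 4 of 2 h, and those of 2 h above all 8 of pre-treatment. The control libraries overlapped with pre-treatment at both times. At 24 h the level was 1626, 3095, 3226 and 3256 CPM in ABA leaves and 2657, 2916, 2904 and 3299 CPM in control leaves. At 48 h it was 1873, 1646, 1725 and 2019 CPM in ABA leaves and 1760, 2093, 1940 and 1768 CPM in control leaves, within the pre-treatment range in all 8 libraries.

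From 2 to 4 h in ABA leaves Vitvi18g01124 averaged 6148 ± 463 CPM at 4 h against 3799 ± 463 CPM at 2 h (SD, n = 4 each), a fitted log2 difference of 0.70 ± 0.21 (SE). Its edgeR adjusted p was 0.0819, so it was not called, although the groups did not overlap. Over 14 other settings the difference was 0.62 to 0.78 and the adjusted p 0.0247 to 0.216. It passed in 4 of them, which were DESeq2 (adjusted p = 0.0360), only the compared groups (0.0247), the replicate block (0.0489) and without the second flow cell (0.0316). Vitvi18g01124 was the only member above control in the mean at both 2 and 4 h after ABA. Its ratio of ABA to control means was 1.32 at 2 h and 1.44 at 4 h, which is given as a description because the control libraries chose it. At both times the ABA and control libraries overlapped.

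Member 9, Vitvi17g00189, had the highest 4 h ratio among members with at least 5 CPM, and its libraries were widely spread. It was kept in 25 of the 32 choices with 1 leaf library left out and with TMM-scaled totals. It was not kept with a pseudocount of 0.5 CPM or without the second flow cell. Its pre-treatment level had a lowest value of 0.543, a median of 3.49 and a highest of 5.86 CPM. At 2 h it had 3.82, 4.18, 8.64 and 12.4 CPM in ABA leaves, and 14.9, 13.7, 16.1 and 1.51 CPM in control leaves. At 4 h it had 9.86, 0, 0.425 and 15.8 CPM in ABA leaves, and 11.3, 24.0, 13.8 and 8.84 CPM in control leaves. The ABA libraries of 4 h fell at the ends of the range, with 2 near 0 and 2 among the control values. Control libraries at 4 h were all above pre-treatment, and at 2 h replicate 4 alone was within the pre-treatment range. From 2 to 4 h in ABA leaves Vitvi17g00189 averaged 6.52 ± 7.68 CPM at 4 h against 7.27 ± 4.08 CPM at 2 h (SD, n = 4 each). The fitted log2 difference was -0.17 ± 0.65 (SE), with an edgeR adjusted p of 0.945. Its sign turned without ABA 2 h replicate 4 (0.21) and without ABA 4 h replicate 2 (0.20) or 3 (0.23).

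**Figure D4:**
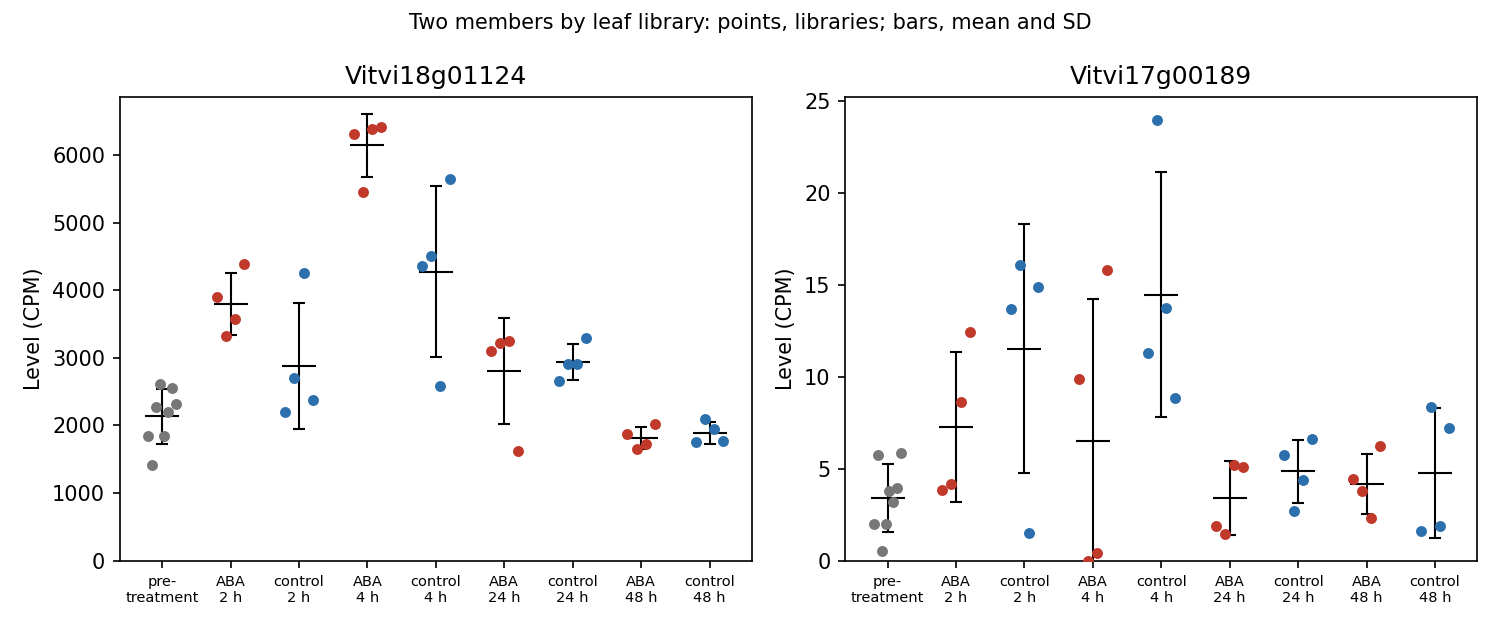
CPM of Vitvi18g01124 (left) and Vitvi17g00189 (right) in each of the 40 leaf libraries (points) by group, with the mean and SD as bars; the vertical axes are linear and start at 0. For Vitvi18g01124 the 4 ABA libraries of 4 h (5456 to 6426 CPM) stand above the 4 of 2 h (3322 to 4395 CPM), and for Vitvi17g00189 the ABA libraries of 4 h spread from 0 to 15.8 CPM.

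Other members had the opposite order in ABA leaves. Member 3 had 25.4, 28.0, 25.5 and 31.1 CPM at 4 h after ABA against 48.1, 36.2, 44.1 and 46.4 CPM at 2 h after ABA. All 4 libraries of 4 h were below all 4 of 2 h, and all 8 were above the highest pre-treatment value of 23.0 CPM. The log2 difference of 4 h against 2 h was -0.66 ± 0.24 (SE), with an edgeR adjusted p of 0.171; in a fit of the compared groups alone the adjusted p was 0.0418. Control leaves had 41.7, 35.4, 42.7 and 52.5 CPM at 4 h and 38.2, 38.9, 34.4 and 23.5 CPM at 2 h. Every ABA library of 4 h was thus below every control library of 4 h, which was so in 2 of the 24 members (3 and 11), and no member had every ABA library above every control library at 4 h. Among tested genes 2 of 16 members were below in this way, where 4.77% of all genes were, and 0 were above, where 4.36% were. The control libraries of 4 h chose the members to be high, so nothing is read from those counts. From ABA 2 h to ABA 4 h, 1 of 16 members (member 1) was above in every library, where 4.01% of genes were. Another 1 (member 3) was below, where 5.42% were. These counts of 1 in 16 lie near the shares of all genes, and nothing is read from them.

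Member 6 had 30.1, 17.9, 16.6 and 25.6 CPM at 4 h after ABA against 36.0, 23.0, 45.9 and 42.5 CPM at 2 h after ABA. The groups overlapped, with a log2 difference of -0.71 ± 0.32 (SE) and an edgeR adjusted p of 0.308. Member 16, with low levels, had 4.70, 4.48, 1.70 and 5.11 CPM at 4 h after ABA against 1.09, 2.09, 2.73 and 0.956 CPM at 2 h after ABA. Those groups also overlapped, through ABA 4 h replicate 3, and the log2 difference was 1.19 ± 0.45 (SE) with an edgeR adjusted p of 0.202. Member 4 had 36.2, 20.2, 37.8 and 40.4 CPM at 4 h after ABA and 26.8, 23.7, 28.2 and 22.9 CPM at 2 h after ABA. Its replicate 2 of 4 h was below every ABA library of 2 h and the other 3 were above, with an edgeR adjusted p of 0.389. Member 2 had 177, 153, 217 and 198 CPM at 4 h after ABA and 178, 173, 262 and 240 CPM at 2 h after ABA, overlapping groups with an edgeR adjusted p of 0.702. All 8 of these libraries were above the highest pre-treatment value of member 2, which was 138 CPM.

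Set against time-matched controls, ABA leaves had higher means in 9 of 24 members at 2 h and in 3 at 4 h. Among the 16 tested these were 7 at 2 h, where 41.9% of all genes had the higher mean with ABA, and 2 at 4 h, where 47% had. By member, 8 were above control at 2 h and below it at 4 h, 13 were below at both times, 2 were below and then above, and 1 was above at both. The log2 ratios of ABA to control ran from -0.76 to 0.70 at 2 h, with a median of -0.09, and from -1.34 to 0.52 at 4 h, with a median of -0.37. The controls of 2 and 4 h were both selected to be high, so negative values at either time describe the choice as well as the leaves. Nothing is read from the values of either time. edgeR called 0 of 16 members at 4 h, where 0.882% of all genes were called higher and 0.673% lower, and 4 had an unadjusted p under 0.05, 1 higher and 3 lower. It called 0 of 16 at 2 h, where 0.0897% were called higher and 0.00747% lower, and 3 had an unadjusted p under 0.05, all higher. DESeq2 called 0 at both times.

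Member 11 had the most negative ratio of ABA to control at 4 h. It had 3.29, 1.68, 2.98 and 3.72 CPM in ABA leaves and 7.93, 18.5, 5.22 and 3.93 CPM in control leaves. The groups did not overlap, but control replicate 2 held 52.1% of the summed control CPM. A single 4 h control library held over 50% of the group's sum in 4 members, at 52.3% in member 21, 55.0% in member 22 and 77.2% in member 24.

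The members with the lowest levels gave the least certain values. Members 21, 22 and 24 had 0 counts in all 8 pre-treatment libraries. Member 21 had 2.35, 1.12, 1.28 and 3.72 CPM at 4 h after ABA against 0, 0.696, 0.455 and 0.956 CPM at 2 h after ABA, with no overlap between the times. In control leaves it had 2.09, 0.545, 0.949 and 3.93 CPM at 4 h and 0.849, 0.414, 0.894 and 0.757 CPM at 2 h, where the times overlapped. Member 18 had the opposite order, with 1.88, 0.561, 1.28 and 2.32 CPM at 4 h after ABA against 3.28, 2.78, 3.64 and 2.87 CPM at 2 h after ABA, also without overlap. Neither was kept by the count filter, and in a fit without that filter their edgeR adjusted p values were 0.488 and 0.734. Over the ABA libraries, member 21 had 18 counts at 4 h and 4 at 2 h, and member 18 had 13 and 24. The shares of genes without overlap (4.01% above and 5.42% below) were counted only among genes kept by the filter. Nothing is therefore read from the separation in members 21 and 18. Member 24 was counted in 3 of 4 control libraries of 4 h, at 3.27, 0.474 and 0.491 CPM, and in 1 of 4 control libraries of 2 h, at 1.51 CPM.

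In buds, the count columns of each group were added up to 1 library, since in 10 of the 11 groups the columns, 3 in each, differed little more than counting noise would make them, and the labels speak of libraries sequenced in triplicate. The 48 h control had 4 columns, which differed more, and those were added up too. A bud comparison is therefore treated as having 1 library on each side, no replicate check and no p-value, and intervals cover counting error only. The bud data of 6 and 24 h and the ABA buds of 72 h were not used to choose the members, whereas 12 and 48 h and the control buds of 0 and 72 h were. Mean bud CPM ran from 0.0807 to 2505 with a median of 4.00, and 20 of 24 members had counts in every summed bud library. A count filter kept 19 members (leaving out 13, 17, 20, 22 and 23).

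ABA buds were at least 2-fold above control buds at 6 h in 2 of the 19 members, where 10.5% of 16214 genes were, and at least 2-fold below in 3, where 5.39% were. At 24 h, 1 member was at least 2-fold above, where 10.8% of genes were, and 2 below, where 7.73% were. At 72 h none was above, where 7.89% of genes were, and 1 was below, where 7.3% were. The choice of members limited the ABA to control ratio of buds at other times, and the level of the 72 h control. Members with small bud differences were thereby favoured, which all genes were not. Nothing is therefore read from these counts beside the shares of all genes. The median log2 differences over the 19 members were -0.47 at 6 h, -0.24 at 24 h and -0.11 at 72 h, beside -0.00, -0.01 and 0.03 over all genes. The members lower with ABA numbered 13 of 19 after 6 h (50.3% of all genes), 13 after 24 h (50.6%) and 11 after 72 h (47.4%), and 9 were lower at both 6 and 24 h, where 34.8% of genes were. Without the first column of each group the 6 h median was -0.19, and the 72 h median turned to 0.03 (without the second, 0.06). The 24 h median was -0.39 without the second column and -0.15 without the third. Without the first column, 2 members were at least 2-fold apart at 72 h.

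**Figure D5:**
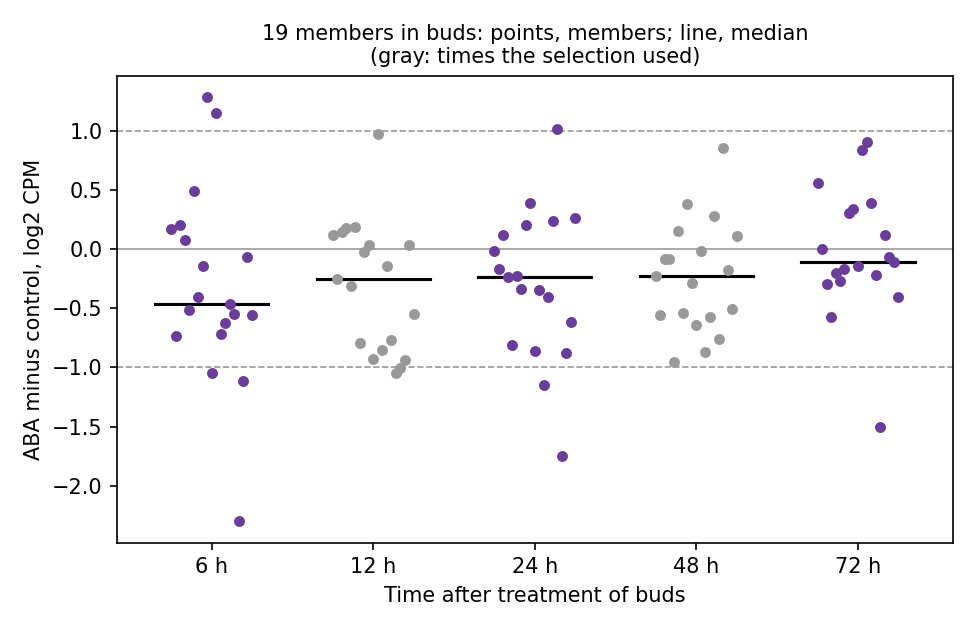
Log2 CPM difference of ABA minus control buds (vertical axis) for 19 members (points) at 5 times (horizontal axis). The median is a line, and dashed lines mark 2-fold. Gray marks the times at which the choice of members limited the ABA to control ratio. The control buds of 72 h, though not the ABA buds, also helped to choose the members. The medians are -0.47, -0.24 and -0.11 at 6, 24 and 72 h, and most points lie between the dashed lines at each time.

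Vitvi18g01124 was the most abundant member in buds as well. Before treatment it had 2527 CPM, with a 95% exact (Clopper-Pearson) binomial interval of 2489 to 2565. At 6, 12, 24, 48 and 72 h it had 2975, 2877, 2552, 2041 and 2115 CPM in ABA buds, and 2667, 3082, 2838, 2549 and 1344 CPM in control buds. Control buds at 72 h had the lowest level of the 11 groups and control buds at 12 h the highest. Its ABA minus control log2 difference, on scaled library sizes, was 0.17 at 6 h, -0.02 at 24 h and 0.56 at 72 h.

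Vitvi17g00189 had 5.48 CPM in ABA buds (interval 3.61 to 7.98) and 2.07 CPM in control buds (1.16 to 3.42) at 6 h, a log2 difference of 1.29. At 24 h it had 4.63 CPM in ABA buds and 3.80 CPM in control buds, and at 72 h 5.67 CPM in ABA buds and 4.12 CPM in control buds. The 6 h intervals did not overlap, and those of 24 and 72 h did. Member 11 was likewise higher in ABA buds at 6 h, with 8.33 CPM (5.98 to 11.3) against 3.59 CPM in control buds (2.35 to 5.26). Member 18 was lower at both times, with 0.406 CPM (0.0492 to 1.47) in ABA buds against 3.32 CPM (2.12 to 4.93) in control buds at 6 h, and 0.597 CPM (0.163 to 1.53) in ABA buds against 3.01 CPM (1.81 to 4.70) in control buds at 24 h. These values rest on 2 and 24 counts at 6 h and on 4 and 19 counts at 24 h. At 72 h member 18 had 2.43 CPM in ABA buds and 2.06 CPM in control buds, within counting error of each other. Members 10 and 19 were also at least 2-fold lower in ABA buds at 6 h. Member 10 had 4.06 CPM (2.48 to 6.27) against 8.84 CPM (6.81 to 11.3) in control buds, and member 19 had 2.03 against 4.83 CPM. Member 2 had 218 CPM (205 to 232) in ABA buds against 367 CPM (353 to 381) in control buds at 6 h. The share of all genes with intervals apart was not counted, so nothing is read from these gaps.

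Turning the signs of the leaf criteria round, so that control leaves had to be lower at 2 and 4 h, gave 18 genes that were lowered over the same hours. In ABA leaves at 2 h the median log2 ratio over pre-treatment was 0.68 in the 24 raised members and -0.68 in the lowered genes. In ABA leaves at 4 h it was 0.87 in the raised members and -1.06 in the lowered genes. From 2 to 4 h in ABA leaves the median change was 0.09 in the raised members, with 14 of 24 above, and -0.30 in the lowered genes, with 7 of 18 above. Both sets were chosen on the same control libraries, and no test was made between them.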

How the data were processed

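The members and lists were chosen with earlier results of these data known. QuantSeq 3′ libraries were sequenced on a NextSeq500, per the labels. The deposited values are raw counts per gene, made by the authors, in a table of 40 leaf columns and one of 34 bud columns; FastQC, STAR and DESeq2 are named in the submitters' processing notes, while the build and the way of counting were not given in the sources used here. Counts shared by near-identical or antisense genes are therefore uncertain. Totals ran from 1321798 to 2414909 per leaf column and from 1526985 to 2616086 per bud column.

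The 8 pre-treatment leaf columns carry 4 header names that occur 2 times each, and were used as members of their group only. The replicate block fit was the exception, since there each column took the number in its header name. Leaf columns were tested as replicates; leaf columns of a group differed by 3.85 to 25.4 in chi-square per degree of freedom. No label links a library to its vine, so a p-value reflects only how these libraries vary. edgeR 4.0.16 (R 4.3.3) fitted 1 mean for each of the 9 leaf groups with TMM scaling, filterByExpr with a minimum count of 10, which left 13378 genes, and the quasi-likelihood test with Benjamini-Hochberg adjustment at 0.05. DESeq2 1.42.0 was an alternative. CPM in the text uses column totals, and log2 ratios of means use a pseudocount of 1 CPM.

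Bud columns of 10 groups differed by 1.02 to 1.17 per degree of freedom and those of the 48 h control by 1.34 to 2.00. Columns were summed by group, and a difference of at least 2-fold in log2 CPM (TMM, prior count of 2) is reported in 16214 genes without a test. The samples called 72 h carry 75 in a description code.

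None of the 42413 identifiers matched the gene table, so the planned lists of pathway and cell type genes could not be formed. The rule for named genes was the member with the highest mean leaf CPM and the one with the highest 4 h ratio among those of at least 5 CPM, and any member called lower in ABA leaves at 4 h than at 2 h, of which there was none. Comparisons of ABA leaves at 2 and 4 h and control leaves at 2 h with pre-treatment, and the medians over members, were added after the data had been seen.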

Additional observations from a re-analysis of the deposited data

Results flagged for a closer look

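In 90 groups of 4 to 8 libraries (9 members with at least 5 CPM and the median over members), 10 had a library farther from the others than a Dixon test at 95% allows; chance gives about 1 in 20 groups. Vitvi18g01124 had 5456 CPM in ABA 4 h replicate 2, against 6319 to 6426 CPM in the other 3, and 1626 CPM in ABA 24 h replicate 1, against 3095 to 3256 CPM. Vitvi17g00189 had 1.51 CPM in control 2 h replicate 4, the library with the lowest total, against 13.7 to 16.1 CPM in the other 3.

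Member 3 had 8.77 CPM in ABA 24 h replicate 2 (others 28.5 to 32.1), 23.9 CPM in control 24 h replicate 3 (others 20.9 to 21.1) and 29.4 CPM in control 48 h replicate 4 (others 12.1 to 13.2). Member 5 had 8.50 CPM in 1 pre-treatment column, against 14.0 to 17.0 CPM in the other 7. Member 7 had 23.4 CPM in control 2 h replicate 1, against 12.9 to 13.8 CPM. The median over the 24 members was 0.083 on the log2 scale in ABA 48 h replicate 4, against -0.23 to -0.18 in the other 3, and -0.20 in control 48 h replicate 3, against -0.01 to 0.00. Of these libraries, ABA 24 h replicate 1, control 2 h replicate 1 and ABA 48 h replicate 4 were on the second flow cell, whose part in the values was not tested.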

How the results depend on the processing

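In the choice of members, a pseudocount of 5 CPM gave 37 genes, of which 6 were among the 24, and 0.5 CPM gave 21, of which 9 were; TMM-scaled totals gave 20 (17 shared) and leaving out the second flow cell 20 (14 shared). Leaving out 1 leaf library at a time gave 19 to 43 genes, the 43 without control 4 h replicate 3. Of the 24 members, 2 were kept in every one of 32 leave-outs. No bud column was left out, although the bud criteria cut 70 genes to 24. For ABA 4 h against ABA 2 h, 0 members were called in edgeR, and 1 with DESeq2, 1 with the replicate block, 1 without the second flow cell and 2 in a fit of the compared groups alone, where 11 members were tested; leaving out single libraries gave 0 to 0. Libraries with the same replicate number in the compared groups correlated by -0.22 to 0.16. These values are a description and cannot show whether the numbers pair the libraries. The difference of Vitvi17g00189 in that comparison, -0.17, ranged from -1.07 to 0.23 without single libraries and turned to 0.21 without ABA 2 h replicate 4, 0.20 without ABA 4 h replicate 2 and 0.23 without replicate 3. Control 4 h against pre-treatment called 9 of the 11 members tested in a fit of the compared groups alone, and 11 to 16 without single libraries. Control 2 h against pre-treatment called 2 to 7 without single libraries, the lowest without control 2 h replicate 1, and 3 without the second flow cell. In the fits without that replicate or that flow cell, 17 members were tested. In buds, members at least 2-fold apart numbered 3 at 6 h and 1 at 24 h with a prior count of 5, 5 at 24 h and 3 at 72 h without the count filter, and 4 to 5, 2 to 3 and 1 to 2 at 6, 24 and 72 h without single columns, the 2 without replicate 1. Where no cause is given, the cause was not tested. Depth limits members under 1 CPM, where 1 count is worth at least 0.414 CPM.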
